A study of Mus musculus with 6 samples.

Results

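The regions described here are stretches of chromatin that were called open in mouse CD8+ T cells cultured with control tumour cells and not in those cultured with tumour cells depleted of Fabp7. ATAC-seq, in which a transposase cuts and tags accessible DNA, had been run on 6 libraries. In 3 libraries the T cells had been cultured with PD-1-resistant lung adenocarcinoma cells (Res-ctrl), and in the other 3 with such resistant cells in which Fabp7, a fatty acid binding protein, had been knocked down by RNA interference (Res-shFabp7). In both groups the T cells came from mouse spleen by removal of other cells, were activated with antibodies against CD3 (5 µg/mL) and CD28 (1 µg/mL), and were kept for 48 h below a porous membrane that held the tumour cells. The knockdown was in the tumour cells and cannot be read from T cell chromatin. The labels call the 3 libraries of a group biological replicates. They do not state the strain, age or number of mice, whether each replicate is a separate animal, or how many tumour clones were used.

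Each library was reduced to its 82153 strongest peaks by q, the length of the shortest deposited list, and overlapping peaks were merged on chromosomes 1 to 19 and X. Of the 108679 merged regions, 572 had a peak in 3 of 3 Res-ctrl and 0 of 3 Res-shFabp7 libraries, which is 0.526% of all. The mirror set, with a peak in 3 of 3 Res-shFabp7 and 0 of 3 Res-ctrl libraries, held 1230 regions or 1.13%. Both counts follow from the rule that chose the regions and carry no test. A further 1422 regions had all 3 Res-ctrl libraries and 1 Res-shFabp7 library, and 52189 regions (48.0%) were called in all 6 libraries and are called constitutive here.

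Open chromatin in T cells marks promoters, where transcription starts, and enhancers, where factors such as the ETS, RUNX, TCF and AP-1 families bind at a distance. After stimulation through the T cell receptor, CD8+ cells open enhancers of effector genes and reduce accessibility at genes of the naive state, among them Lef1 and Tcf7. The list of CD8 T cell identity genes had 17 genes in the gene table, and all 17 had a constitutive region. So did 12 of 12 CD4 and regulatory T cell markers, 6 of 9 NK cell markers and 10 of 13 B cell markers. Of the myeloid markers 10 of 16 did, of the erythroid and megakaryocyte markers 7 of 11, and of the epithelial tumour markers 8 of 14. The same share over all genes is not given here, so nothing about cell identity is read from these counts.

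Promoter sequence was at hand for a few of the regions. Of the 572 regions, 25 overlapped a RefSeq promoter window, the 250 bases before to 50 bases after a start site, on build GRCm38.p6, whose coordinates are those of mm10. Shown here are the 250 bases before the start at Eomes, Pcbp1 and Themis, which belong to the gene lists described further on, and at Bloc1s1, Ndrg2 and Pitpnm1, the strongest others at named genes that share at least 30 bases before the start outside any gene body. They are written 5′ to 3′ on the gene's strand, and capitals mark the bases inside the region called only with Res-ctrl.
Eomes (chr9:118477939-118478188, plus strand): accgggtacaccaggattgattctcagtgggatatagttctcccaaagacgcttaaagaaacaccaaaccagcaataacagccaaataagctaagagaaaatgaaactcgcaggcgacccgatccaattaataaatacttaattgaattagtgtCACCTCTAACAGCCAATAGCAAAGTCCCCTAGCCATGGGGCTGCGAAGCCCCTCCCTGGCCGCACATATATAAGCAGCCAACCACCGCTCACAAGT
Pcbp1 (chr6:86526190-86526439, minus strand): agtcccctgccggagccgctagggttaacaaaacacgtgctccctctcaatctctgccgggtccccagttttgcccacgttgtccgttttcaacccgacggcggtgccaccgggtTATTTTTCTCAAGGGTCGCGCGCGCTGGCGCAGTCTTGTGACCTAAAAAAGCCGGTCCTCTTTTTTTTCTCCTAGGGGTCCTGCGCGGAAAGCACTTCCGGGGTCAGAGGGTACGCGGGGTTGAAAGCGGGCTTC
Themis (chr10:28668110-28668359, plus strand): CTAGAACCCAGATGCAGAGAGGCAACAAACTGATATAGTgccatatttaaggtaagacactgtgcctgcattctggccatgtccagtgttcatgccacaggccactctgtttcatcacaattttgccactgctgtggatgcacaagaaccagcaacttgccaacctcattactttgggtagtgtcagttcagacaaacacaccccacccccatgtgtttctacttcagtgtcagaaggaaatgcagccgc
Bloc1s1 (chr10:128923525-128923774, minus strand): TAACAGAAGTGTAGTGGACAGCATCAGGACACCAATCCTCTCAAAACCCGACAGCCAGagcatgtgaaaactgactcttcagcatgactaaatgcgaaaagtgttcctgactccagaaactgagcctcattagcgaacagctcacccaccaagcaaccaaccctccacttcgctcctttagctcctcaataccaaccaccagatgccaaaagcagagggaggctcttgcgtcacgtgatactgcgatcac
Ndrg2 (chr14:51914005-51914254, minus strand): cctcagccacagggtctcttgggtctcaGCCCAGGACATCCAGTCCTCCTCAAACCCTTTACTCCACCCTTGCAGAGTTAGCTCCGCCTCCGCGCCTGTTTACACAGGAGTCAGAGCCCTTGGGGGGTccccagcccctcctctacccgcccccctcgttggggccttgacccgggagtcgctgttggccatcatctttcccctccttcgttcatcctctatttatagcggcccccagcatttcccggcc
Pitpnm1 (chr19:4099748-4099997, plus strand): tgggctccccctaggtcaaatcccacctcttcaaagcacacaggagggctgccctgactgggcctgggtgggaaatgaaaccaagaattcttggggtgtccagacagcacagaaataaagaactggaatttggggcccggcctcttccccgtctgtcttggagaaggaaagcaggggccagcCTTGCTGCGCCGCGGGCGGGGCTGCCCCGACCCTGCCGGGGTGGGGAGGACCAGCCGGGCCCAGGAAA
At Bloc1s1 and Themis the capitals lie at the end far from the start, at Ndrg2 they stop short of both ends, and at Eomes, Pcbp1 and Pitpnm1 they run up to the start. The region at Eomes, the T-box factor of effector and memory CD8+ cells, shared 96 of these bases and that at Pcbp1, an iron chaperone, 135. Fold here is the height of a peak's summit over its local background, as the authors' files give it, in Res-ctrl replicates 1, 2 and 3 in that order. It was 4.33, 4.60 and 5.69 at Bloc1s1, a subunit of the complex that forms lysosome-related organelles, and 3.48, 4.28 and 3.06 at Ndrg2. It was 2.8, 2.70 and 2.96 at Pitpnm1, a phosphatidylinositol transfer protein. Res-shFabp7 replicate 2 had a weaker peak of 2.36 at Pitpnm1, and none was listed at Bloc1s1 and Ndrg2.

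Motif matches in the promoter windows were few. The GC-box letters GGGCGGGG, bound by KLF and SP factors, were found on either strand in 9 of the 28 windows that the regions overlap (32.1%), in 17.7% of all 32619 windows and in 34.8% of the 11875 windows over a constitutive region. One of them lies in the capitals of Pitpnm1. The letters CCAATC, which NFY reads, were in 5 windows (17.9%, against 16.2% of all), among them the capitals of Bloc1s1. The ETS letters CCGGAAGT were in 1 window (3.57%, against 3.91% of all), in the capitals of Pcbp1. The AP-1 letters TGANTCA were in 1 window (3.57%, against 7.85% of all), and the RUNX letters TGTGGTTT in 0 (1.79% of all). In the windows over a constitutive region the shares were 21.7% for NFY, 9.15% for ETS, 4.69% for AP-1 and 1.23% for RUNX. The median GC content of the 28 windows was 60.2%, that of all windows 53.0% and that of windows over a constitutive region 61.7%. A match describes the letters in the window and not binding.

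The regions had low peaks. In Res-ctrl replicates 1, 2 and 3 the median pileup, the authors' coverage at the summit, was 13, 12 and 18, and the median fold of the summit over local background was 4.72, 4.78 and 5.22. The −log10 q, the authors' peak score, had medians of 5.83, 5.51 and 7.73. The median peak ranked 66396th, 65487th and 68486th of the 82153 kept, and the best rank of any was 28468, in replicate 3. Replicate 3 gave the highest medians of all 3 measures. It was also the Res-ctrl library with the most background coverage, 1.01 against 0.709 and 0.608, while the Res-shFabp7 libraries had 1.03, 0.868 and 0.959. The lowest −log10 q of a region was in replicate 1 for 254 regions, in replicate 2 for 266 and in replicate 3 for 52.

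Most of the regions were not without a peak in the other group. In the full lists, before they were reduced, 439 of the 572 regions had a weak Res-shFabp7 peak in at least 1 library, and 133 (23.3%) had none. A weak peak was present in 1 library for 189 regions, in 2 for 166 and in all 3 for 84. In the mirror set 708 of 1230 regions (57.6%) had no peak in any full Res-ctrl list. The full lists differ in length, as the reduction had dropped 2691, 0 and 14157 peaks from the Res-ctrl lists and 22422, 23643 and 18090 from the Res-shFabp7 lists. The Res-shFabp7 libraries 1, 2 and 3 had a weak peak in 256, 282 and 235 of the 572 regions, with median folds of 4.01, 4.15 and 3.98.

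**Figure D1:**
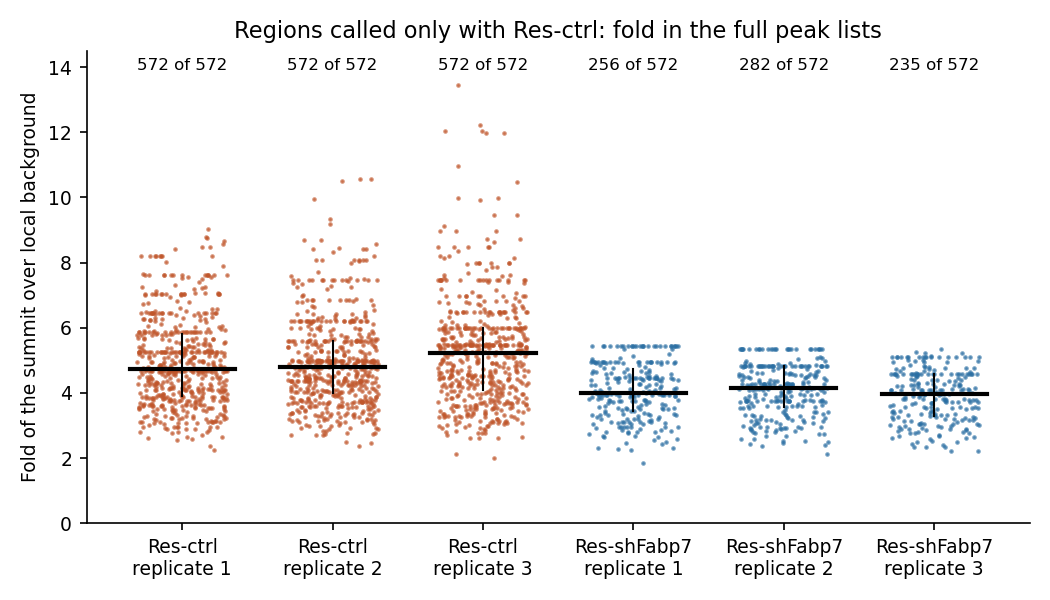
Fold of the summit over local background (y axis, linear) for the 572 regions called only with Res-ctrl in each of the 6 full peak lists (x axis). Each point is a region with a peak in that list, the number of such regions stands above, thick bars are medians and thin lines the quartiles; the Res-ctrl medians lie at 4.72 to 5.22 and the Res-shFabp7 medians at 3.98 to 4.15.

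Where all 6 libraries had a peak, the heights were near each other. In the 84 regions with a weak peak in all 3 Res-shFabp7 libraries, the median of the mean fold was 5.38 with Res-ctrl and 4.27 with Res-shFabp7. The ratio of the group means was 1.26 in the median region and ran from 1.05 to 1.97. Every Res-ctrl fold was above every Res-shFabp7 fold in 40 of the 84, against 5.34% of the 56599 regions with a peak in all 6 full lists. The rule chose on this contrast, so nothing is read from that comparison.

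Equal list length did not mean an equal threshold. The last peak kept had a −log10 q of 2.77, 1.31 and 4.98 in Res-ctrl replicates 1, 2 and 3 and of 5.62, 5.24 and 5.54 in the Res-shFabp7 libraries. Of the 572 regions, 205 had a weak Res-shFabp7 peak with a higher −log10 q than their lowest Res-ctrl peak. In 1 region, within Etv3, an ETS-family repressor, a Res-shFabp7 peak had a higher −log10 q than every Res-ctrl peak. Its Res-ctrl values were 4.72, 3.31 and 4.98 and its Res-shFabp7 values 5.17, 3.83 and 5.26. In 153 regions every Res-ctrl value was above the last kept value of every library. Ranking by fold in place of q gave 960 regions for Res-ctrl and 1562 for Res-shFabp7.

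The regions nearest the edge of the rule show how narrow it is. Among those just inside were the Etv3 region, a region within Atp1b2, a sodium pump subunit, with −log10 q of 8.93, 4.20 and 4.98 in the Res-ctrl libraries and 3.19 in Res-shFabp7 replicate 2, and a region 8556 bp outside Commd7, with 4.49, 1.54 and 6.36 and with 3.83 in Res-shFabp7 replicate 1. Just outside was a region 11878 bp from Ralb, a small GTPase, with 5.95, 4.23 and 13.6 in the Res-ctrl libraries and a single Res-shFabp7 peak of 5.62, ranked 82129th of 82153 in replicate 1. A region within Xkr6 and one over 100 kb from any protein-coding gene on chromosome 14 (98870079 to 98870263) were the other 2, each left out by a Res-shFabp7 peak of 5.24 in replicate 2.

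Regions chosen on some of the libraries were then read in the libraries left out. The choice was repeated 9 times, each time on 2 Res-ctrl and 2 Res-shFabp7 libraries with the same rule, which gave 2043 to 2271 regions. The merged regions were those of all 6 libraries, so peaks of the left-out libraries had a part in the boundaries. The reading is therefore not fully independent of the left-out libraries. Of these, 46.0 to 51.4% had a peak in the left-out Res-ctrl library and 35.6 to 38.4% in the left-out Res-shFabp7 library. The Res-ctrl share was higher in 9 of 9 pairs, by 9.38 to 15.6 percentage points. The mirror choice gave 3119 to 4219 regions, of which 56.2 to 64.7% had a peak in the left-out Res-shFabp7 library and 29.2 to 45.5% in the left-out Res-ctrl library. The 9 pairs share libraries and are shown side by side with no test. Every one of the 572 regions called only with Res-ctrl is in each of the 9 choices. By the rule it has a peak in the left-out Res-ctrl library and none in the left-out Res-shFabp7 library. The mirror choices hold the 1230 regions of the mirror set in the same way. The pairs therefore repeat the same regions, and nothing is read from their agreement. With the full lists, the Res-ctrl share was higher in 3 of 9 pairs, those that left out Res-ctrl replicate 3 (by 9.20, 8.91 and 13.0 points), and lower by 2.79 to 13.5 points in the other 6, which left out Res-ctrl replicate 1 or 2, the libraries with the shortest lists.

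**Figure D2:**
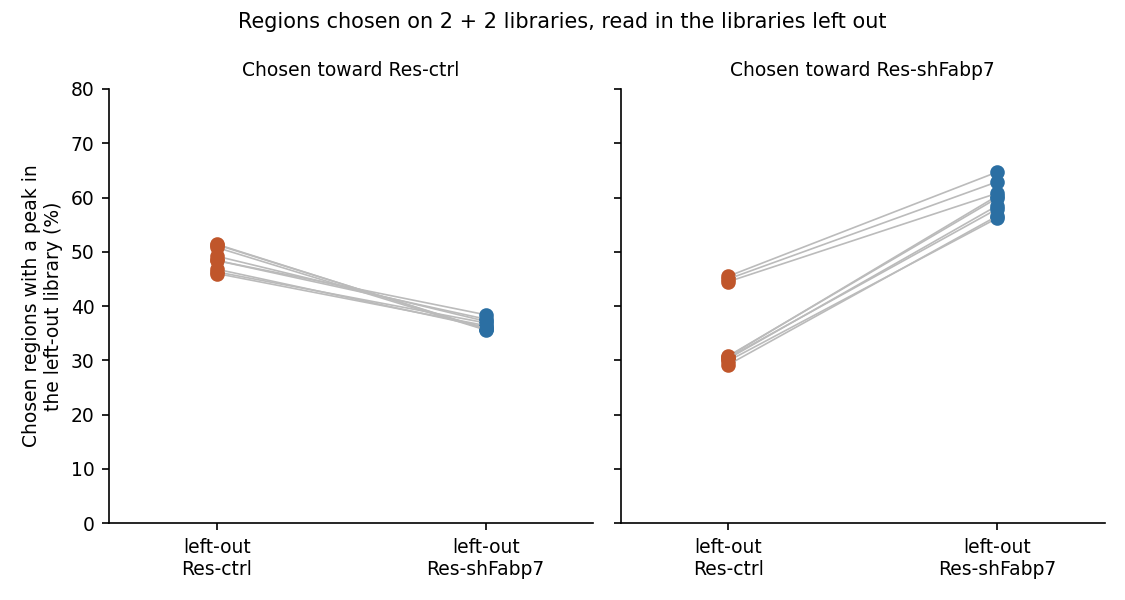
Percentage of regions with a peak in a left-out library (y axis), for regions chosen on 2 libraries of each group. The left panel shows regions chosen toward Res-ctrl and the right panel those chosen toward Res-shFabp7. Region boundaries came from the merged peaks of all 6 libraries, the left-out ones included. Each grey line joins the left-out Res-ctrl and Res-shFabp7 library of 1 of 9 pairs; in the left panel Res-ctrl lies at 46.0 to 51.4% and Res-shFabp7 at 35.6 to 38.4%.

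Of the regions called only with Res-ctrl, 298 lay within 1 kb of a constitutive region and 274 lay farther away. Their median width was 158 bp (quartiles 128 and 201 bp), against 210.5 bp in the mirror set and 168 bp in the 6314 regions called in 3 of 6 libraries drawn from both groups. The gap to the nearest constitutive region had a median of 835 bp, against 8067.5 bp in the mirror set and 3496.5 bp in the mixed regions. Of the 572 regions, 31.3% (179 regions) lay within 200 bp of one and 52.1% within 1 kb. In the mirror set 7.40% and 17.6% did, and among the mixed regions 18% and 32.6%. This position was not part of the rule, except that a peak touching a constitutive region is merged into it.

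**Figure D3:**
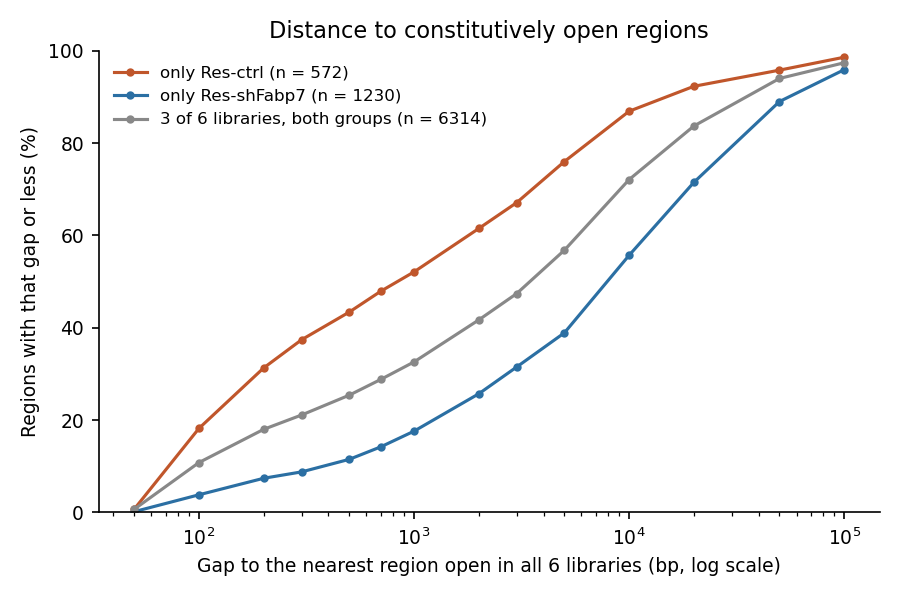
Cumulative percentage of regions (y axis) by the gap to the nearest region open in all 6 libraries (x axis, log scale), for regions called only with Res-ctrl, only with Res-shFabp7, and in 3 of 6 libraries of both groups. At a gap of 1000 bp the curves stand at 52.1%, 17.6% and 32.6%.

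The 298 regions within 1 kb of a constitutive region differed in shape from the other 274. Their median fold in the 3 Res-ctrl libraries was 4.30, 4.37 and 4.47, against 5.27, 4.97 and 5.57 farther away, while their median pileup was higher, at 17, 17 and 24 against 11, 10 and 15. They were 146 bp wide in the median, against 168 bp. Of the 298, 90 (30.2%) had no peak in any full Res-shFabp7 list, as did 43 of the 274 (15.7%). The constitutive neighbours themselves had median folds of 11.8, 11.2 and 12.7 in the Res-ctrl libraries and 12.4, 12.4 and 12.2 in the Res-shFabp7 libraries. Over all constitutive regions the medians were 10.6, 10.4 and 12.2, and 12.2, 12.1 and 12.2.

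Separate regions beside constitutive regions were more frequent, per 1000 peaks, in every Res-ctrl library, also outside the 572 regions. Leaving out the 572 regions and the mirror set, each Res-ctrl library had 51.1, 50.8 and 50.8 regions within 200 bp of a constitutive region per 1000 of its peaks, and each Res-shFabp7 library 43.2, 43.5 and 42.4. The groups did not overlap. Within 1 kb the values were 89.6, 89.3 and 96.1 with Res-ctrl and 84.0, 83.2 and 78.1 with Res-shFabp7, again without overlap and highest in Res-ctrl replicate 3. Peak width moved with the group as well. The median peak was 180, 178 and 206 bp wide with Res-ctrl and 217, 214 and 212 bp with Res-shFabp7. Peaks per constitutive region numbered 1.16, 1.18 and 1.11 with Res-ctrl and 1.1, 1.11 and 1.1 with Res-shFabp7, so that Res-ctrl replicate 3 was like the other group. The part of peak width and of peaks per constitutive region in this result was not tested. Merging peaks across gaps of up to 200 bp left 380 Res-ctrl regions and 1090 mirror regions.

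A gene end here is either boundary of a protein-coding gene, its start included. Within 1 kb of a gene end lay 96 of the 572 regions (16.8%), against 7.24% of the mirror set. Among the mixed regions 13.7% did, and of all merged regions 18.8%. Of the 96, 79 were among the 298 regions within 1 kb of a constitutive region. The share moved with the settings, from 7.89% when merging across 200 bp to 22.8% when ranking by fold, 25.6% with summit windows and 34.7% from the strongest 20000 peaks. Start sites were known for the 554 regions not on chromosome 18. Directly at a start, within 250 bp, lay 26 of them (4.69%), against 16.8% of constitutive regions and 9.93% of all. In the mirror set 2.27% did, and among the mixed regions 4.11%. Between 250 and 1000 bp from a start lay 71 (12.8%), against 4.88% of the mirror set, 9.21% of the mixed regions, 8.23% of constitutive regions and 8.45% of all. Inside a gene lay 351 regions (61.4%), against 60.8% of all, and 19 regions (3.32%) lay over 100 kb from any gene, against 4.67% of all, 5.10% of the mixed regions and 7.40% of the mirror set.

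**Figure D4:**
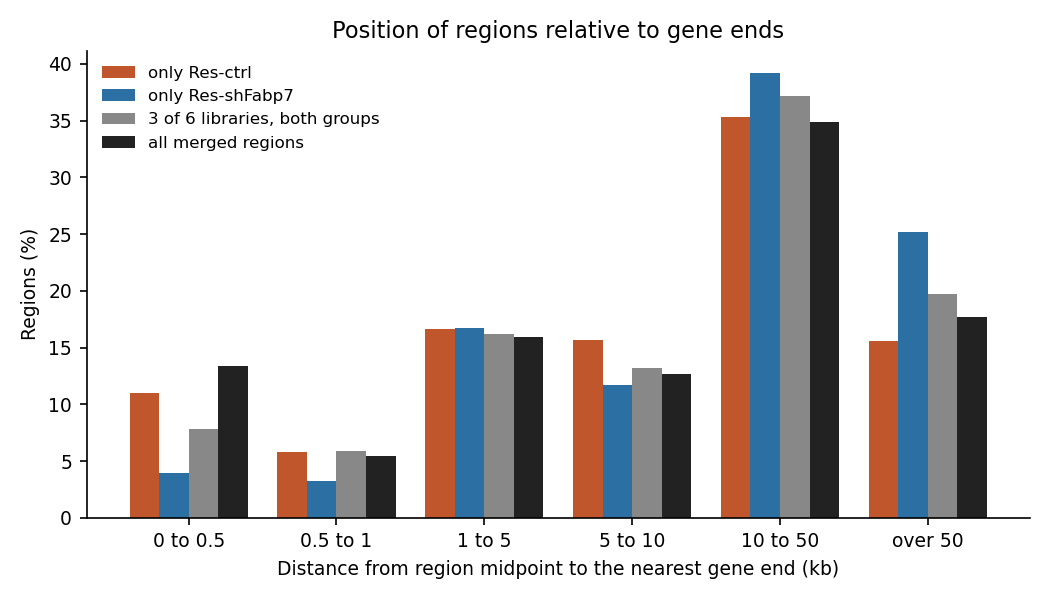
Percentage of regions (y axis, bars from 0) by distance from the region's midpoint to the nearest gene end in kb (x axis), for the 4 sets in the key. A gene end is either boundary of a gene, its start included. Of the regions called only with Res-ctrl, 11.0% lie within 0.5 kb of a gene end and 15.6% beyond 50 kb, against 3.98% and 25.2% of those called only with Res-shFabp7.

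The strongest regions, by the lowest −log10 q over the 3 Res-ctrl libraries, were near genes of several kinds. The first lay 2735 bp outside Igtp, a GTPase of cell-autonomous immunity that interferon gamma induces (chromosome 11, 58210220 to 58210435). Its folds with Res-ctrl were 4.29, 4.09 and 4.02, and 1 weak peak with a fold of 2.23 was listed in Res-shFabp7 replicate 3. A region 76748 bp from Ets1, a transcription factor needed in T cell development (chromosome 9, 32834456 to 32834681), had folds of 8.56, 8.32 and 7.98 and a weak peak of 4.59 in Res-shFabp7 replicate 2. A region within Syne3, which encodes a nuclear envelope protein (chromosome 12, 104999291 to 104999487), had 7.91, 6.05 and 9.11, and its −log10 q of 19.5, 10.7 and 34.4 was highest in replicate 3. The highest fold among the strongest 10 was at Pkig, an inhibitor of protein kinase A, 46 bp outside the gene (chromosome 2, 163726125 to 163726283), with 8.19, 10.6 and 9.97, and weak peaks of 5.43 and 5.35 were listed there in Res-shFabp7 replicates 1 and 2. In each of these 4 regions every Res-ctrl fold was above the weak ones. The rule chose on this contrast, so nothing is read from that. Ramp1, a subunit of the receptor for the neuropeptide CGRP, had 4.70, 4.87 and 4.48 with weak peaks of 3.12 and 3.33. Cct6b, a chaperonin subunit, had 7.23, 8.42 and 7.1 with one of 4.29. Prr14 had 4.54, 5.66 and 3.97 with weak peaks of 2.89 and 2.87.

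Among regions with no peak in any full Res-shFabp7 list, the strongest lay 55937 bp from Pls3, an actin-bundling protein (chromosome X, 75729656 to 75729776), with folds of 8.19, 8.08 and 8.97. At P4ha1, a collagen prolyl hydroxylase that hypoxia induces, an 84 bp region 271 bp outside the gene had folds of 3.99, 5.29 and 3.43. Itpkb, a kinase of inositol trisphosphate in T cell receptor signalling, held a 113 bp region with 4.41, 4.84 and 3.86 (chromosome 1, 180397029 to 180397141). Inpp5b, an inositol polyphosphate phosphatase, held one of 100 bp with 3.67, 3.70 and 3.68, 664 bp from a start site. A region 462 bp outside Fam193b had 5.13, 7.53 and 5.71. These last 4 regions were 84 to 113 bp wide, narrower than the median of all 572, and lay within 1 kb of a constitutive region.

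Lef1, a transcription factor of the naive T cell state, had more of these regions than any other gene, with 4, while 25 genes had 2 and the other genes 1 each. In all, 525 of 21631 genes had at least 1. Lef1 has 78 merged regions, of which 33 were constitutive and 1 was called only with Res-shFabp7. Of all merged regions 0.526% were called only with Res-ctrl. A gene with many merged regions can hold more of them, which was not taken into account. A pair of the 4 lay before the gene on chromosome 3, 2913 and 294 bp from its start. The first (131107321 to 131107447) had folds of 3.10, 3.39 and 3.20 and the second (131109957 to 131110050) 2.79, 3.94 and 3.58, with no Res-shFabp7 peak in the full lists for either. The other pair lay within the gene, 29955 and 33975 bp from its start. The stronger one (131140167 to 131140337) had 5.88, 5.06 and 5.82 and a weak peak of 2.85 in Res-shFabp7 replicate 1. The last (131144194 to 131144351) had 4.02, 3.72 and 4.23 with Res-ctrl and 3.52, 3.17 and 3.34 with Res-shFabp7, so that the groups differed by little. They did not overlap, but the rule favours this and nothing is read from it. In the order given, the 4 regions lay 1092, 1894, 111 and 1700 bp from the nearest constitutive region. The first of them was 594 bp from another listed start site.

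**Figure D5:**
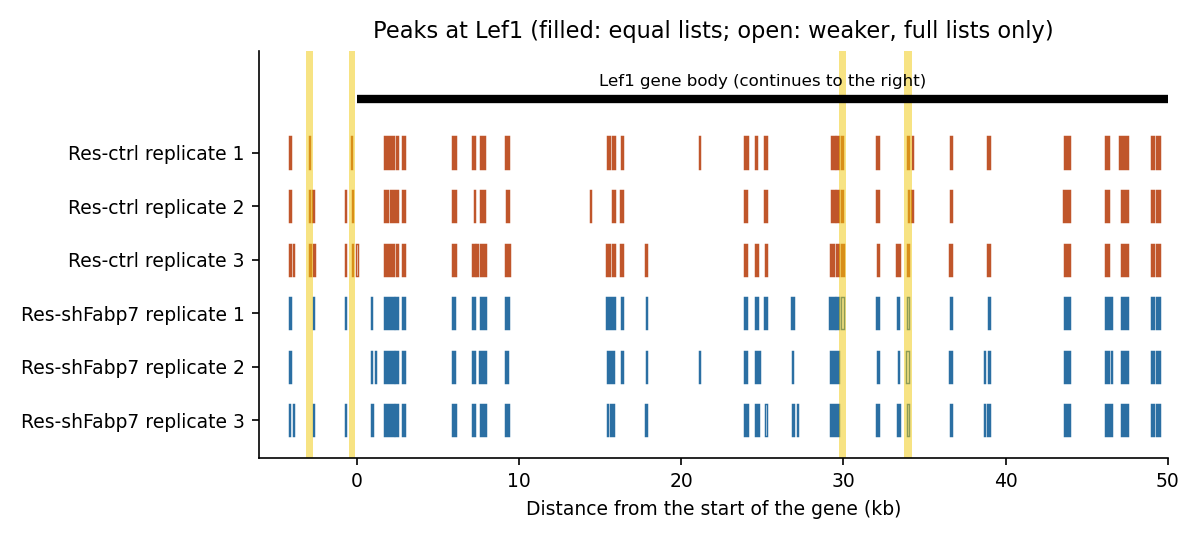
Peaks at Lef1 in the 6 libraries (rows) by distance from the start of the gene in kb (x axis). Filled bars are peaks of the equal lists, open bars weaker peaks of the full lists, and the black line the gene. Yellow bands, widened to be visible, are the 4 regions called only with Res-ctrl. Of the 78 regions assigned to the whole gene, 33 were constitutive. The gene continues beyond the right edge, so not all of these regions are drawn.

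Other genes with 2 regions included Adgre5, the adhesion receptor CD97 of leukocytes, Tet3, an enzyme that oxidises methylated cytosine, and Clec16a, which acts in autophagy. The Adgre5 regions lay 341 bp outside and 1468 bp inside the gene, with folds of 4.35, 5.00 and 3.80 and of 3.24, 3.98 and 3.52, and neither had a Res-shFabp7 peak. The Tet3 regions, both within the gene, had 3.59, 3.85 and 3.93 with no Res-shFabp7 peak, and 4.99, 4.76 and 5.72 with weak peaks of 3.83 and 3.70 in Res-shFabp7 replicates 1 and 2. Of the Clec16a regions, one had 3.21, 3.37 and 3.49 and no Res-shFabp7 peak, and the other had 3.77, 5.30 and 5.67 with weak peaks of 3.79 and 3.29, the first of them above the lowest Res-ctrl fold. Nemp2, a nuclear envelope membrane protein, had 5.65, 6.27 and 5.65 with a weak peak of 4.25 at one region, and 3.19, 3.61 and 3.76 with none at the other.

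In the 20 gene lists, 28 of the 354 matched genes had such a region, beside 525 of all 21631 genes. The number of merged regions per gene was not taken into account in these counts. Such regions made up 0 to 2.78% of a list's regions, beside the 0.526% of all merged regions, and none was tested. Of lists with such a region, CD8 T cell identity had 1 of 491 regions called only with Res-shFabp7, and cytotoxic effector 3 of 288. Over all merged regions that share was 1.13%. Exhaustion and checkpoint had 4 of 363, naive and memory 10 of 855, and activation transcription factors 2 of 452. T cell receptor and calcium signalling had 5 of 618, ferroptosis and iron 0 of 166, and fatty acid uptake and metabolism 2 of 142. Apoptosis had 3 of 269, circadian clock 2 of 255 and glycolysis and hypoxia 3 of 251. Chromatin modifiers had 1 of 260 and epithelial tumour markers 0 of 72. Of the 491 regions of the CD8 T cell identity list, 4 (0.815%) were called only with Res-ctrl. Besides Ets1 they were assigned to Cd8b1, Runx3 and Themis. The region 5410 bp outside Cd8b1, the CD8 beta chain, had folds of 5.19, 3.48 and 4.18 and weak peaks of 3.28 and 3.17. The one within Runx3, the factor of the CD8 lineage, had 6.73, 4.84 and 5.08 and a weak peak of 3.71. The one 272 bp outside Themis, a T cell receptor signalling protein, had 3.59, 2.72 and 3.10 and no weak peak. The naive and memory list had 7 of 855 (0.819%) called only with Res-ctrl and 10 of 855 only with Res-shFabp7. Apart from Lef1, the former were 1 each at Bach2 (folds of 6.23, 6.34 and 7.76), Tcf7 (4.49, 4.72 and 4.93) and Foxp1 (3.61, 4.09 and 3.79). All are transcription factors of quiescent or memory T cells. Weak peaks were listed for Bach2 in Res-shFabp7 replicates 1 and 3, at 4.72 each, and for Tcf7 and Foxp1 in replicate 3, at 3.22 and 3.74. The weak peak at Foxp1 was above the lowest Res-ctrl fold there, so that the groups overlapped.

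The cytotoxic effector list had 2 of 288 regions (0.694%). At Eomes, the region whose sequence is shown above had folds of 3.74, 4.03 and 3.57 and a weak peak of 2.97 in Res-shFabp7 replicate 3. At Cx3cr1, a chemokine receptor of effector cells, the folds were 4.20, 5.33 and 4.45, with no Res-shFabp7 peak. The exhaustion and checkpoint list had 1 of 363 (0.275%), within Nr4a2, a nuclear receptor that antigen stimulation induces, with 5.44, 4.75 and 4.66 and a weak peak of 3.35. Activation transcription factors had 3 of 452 (0.664%), at Fos, Nfatc1 and Irf4. Fos, an AP-1 subunit, had 3.84, 3.33 and 3.80 and a weak peak of 3.20, and the region lay within the gene, 444 bp from a start site. Nfatc1 and Irf4 had no Res-shFabp7 peak, at folds of 3.69, 3.10 and 4.0 and of 3.24, 2.93 and 3.25. The Nfatc1 region lay 1807 bp outside the gene.

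In the metabolic and death lists, ferroptosis and iron had 2 of 166 regions (1.20%), at Lpcat3, which places polyunsaturated fatty acids into phospholipids, with 4.77, 4.12 and 4.20, and at the start of Pcbp1, with 3.66, 3.31 and 3.50. Neither had a Res-shFabp7 peak. Fatty acid uptake and metabolism had 1 of 142 (0.704%), at Srebf1, the regulator of lipid synthesis, 71 bp from a start site, with 3.84, 4.98 and 3.35 and a weak peak of 2.96. Apoptosis had 3 of 269 (1.12%), and 3 of 269 were called only with Res-shFabp7. Bcl2l11, which encodes the death activator Bim, had 6.75, 5.50 and 6.62 and a weak peak of 5.08. Bax, a pore-forming effector, had 4.80, 4.69 and 6.00 and a weak peak of 3.34. A region 16474 bp outside Pmaip1, which encodes Noxa, had 4.68, 5.60 and 5.95. Its weak peaks of 4.94 and 4.82 were above the lowest Res-ctrl fold. The clock-related repressor Nfil3 and the histone methyltransferase Ezh2 had 1 region each, with weak peaks in 2 Res-shFabp7 libraries. The Nfil3 region lay 18699 bp outside the gene and the Ezh2 region within it. At Nfil3 the Res-ctrl folds were 6.46, 4.43 and 4.05 and the weak ones 3.6 and 4.18, so that the groups overlapped. At Ezh2 they were 5.02, 6.19 and 5.54, against 4.92 and 5.14, which overlapped too.

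Chromatin modifiers had 3 of 260 regions (1.15%), 2 at Tet3 and 1 at Ezh2, circadian clock genes 1 of 255 (0.392%), T cell receptor and calcium signalling 2 of 618 (0.324%), and glycolysis and hypoxia 1 of 251 (0.398%). The other 7 of the 20 lists had 0. Their regions numbered 78 for mitochondrial respiration, 131 for interferon response, 169 for CD4 and regulatory T cell, 75 for NK cell, 39 for B cell, 87 for myeloid, and 23 for erythroid and megakaryocyte markers. At 0.526% each would hold under 1 such region, so nothing is read from these zeros. Epithelial tumour markers had 2 of 72 regions (2.78%), near Esrp1, a splicing regulator of epithelia, with 7.14, 5.96 and 6.14 and weak peaks of 4.34 and 4.39, and within Egfr, with 4.0, 5.40 and 5.22 and none. This was the highest share of the 20 lists, from 2 regions. The other 12 genes of the list had none, and the part of tumour cells in these peaks was not tested.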

How the data were processed

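The build was mm10 and the submitters' processing notes name MACS2 2.2.7.1, Bowtie 1.1.2, cutadapt 2.8 and Trim Galore 0.6.5 without their settings, so duplicates, transposase offset and peak mode are unknown. Each library has its own list of peaks, cut by the authors at q of 0.05 going by the lowest deposited values, with p and q as −log10, the summit pileup as a coverage signal, and a fold, the ratio of summit to local background. These are the authors' values per peak and served to rank and describe peaks. Read pairs ran from 35 to 75 M per library per the labels' protocols, and depth per library was read as the most frequent background, pileup plus 1 over fold, minus 1. Low pileups limit the precision of each peak, and an absent peak is not absent accessibility.

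Starts were taken to count from 0, as inferred from the values, and are given from 1. Lists were reduced to 82153 peaks (ties by fold, chromosome, start) and merged by 1 bp overlap with Python 3.11.15 and pandas 2.3.3. Regions were assigned by midpoint to the nearest of 21631 protein-coding RefSeq genes within 100 kb. The gene table has no exons, so exons, introns and UTRs are not given. Of 356 list genes 354 matched. Functions were tested on simulated lists. No region was tested, since the values chose them.

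The members and gene lists were chosen with earlier results of these data known. Genes named are the 10 strongest by lowest −log10 q, the 5 strongest without a full-list Res-shFabp7 peak, the 5 with most regions, all list genes (up to 4 a list), and 3 regions on each side of the threshold. Alternatives were other list lengths, q of 0.01 and 0.001, ranking by fold or pileup, merging across 200 bp, summit windows, 50% cover, and leaving out each library.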

Additional observations from a re-analysis of the deposited data

How the results depend on the processing

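Regions called only with Res-ctrl were fewer than those called only with Res-shFabp7 under every alternative run, but both counts moved with the settings. In the order only Res-ctrl, only Res-shFabp7 and percentage of the former within 1 kb of a gene end, the main values were 572, 1230 and 16.8%. They were 456, 957 and 20.2% from the strongest 60000 peaks, 324, 680 and 22.8% from 40000, and 176, 309 and 34.7% from 20000. From all deposited peaks they were 208, 3065 and 20.2%, at a q of 0.01 they were 207, 3068 and 20.3%, and at 0.001 they were 212, 2844 and 21.2%, all from lists of unequal length. Ranking by fold gave 960, 1562 and 22.8%, ranking by pileup 519, 1196 and 13.5%, merging across 200 bp 380, 1090 and 7.89%, summit windows 866, 1288 and 25.6%, and 50% cover 489, 2124 and 18.4%. Within 500 bp or 5 kb of a gene end the percentage was 11.0% and 33.4%. Leaving out 1 library relaxes the rule and gave 1058 to 1445 and 1874 to 2576 regions, and 16.2 to 17.5%; the 1445 came without Res-ctrl replicate 2 and the 2576 without Res-ctrl replicate 3. The median excess of the left-out Res-ctrl library was 10.8 percentage points, 21.1 from 40000 peaks, and -6.73 from all deposited peaks, which is a reversal; the cause was not tested. No paired analysis was possible because the results are counts over all 6 libraries with no test to hold a block; the pairs of the same replicate number gave an excess of 9.99, 10.7 and 15.1 points. Low pileup, with medians of 12 to 18 in the Res-ctrl libraries, limits what each region can show.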

Other observations

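The regions called only with Res-ctrl were spread over all chromosomes analysed. Their share of the merged regions was lowest on chromosome 16 (14 of 3967, 0.353%) and highest on chromosome 14 (29 of 3947, 0.735%), and chromosome X had 17 of 2543 (0.669%). Pairs of them within 5 kb of each other were rare, 8 in all. Besides the pairs at Lef1, these lay at Coro2a, an actin regulator, at Adgre5, at Tipin, which acts at replication forks, at Ccdc88c, at Dzip1, and between Akt1, the kinase of growth and survival signalling, and its neighbour Zbtb42. The Akt1 region (chromosome 12, 112674236 to 112674476) overlapped the gene's start window by 241 bases and had a weak peak in all 3 Res-shFabp7 libraries. Smarcb1, a core subunit of the SWI/SNF remodelling complex, had a region of the same kind 262 bp before its start, with no Res-shFabp7 peak. These genes were chosen after their values had been seen.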
